A study of Mus musculus with 4 samples.

Results

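The epithelial sodium channel and the membrane serine proteases that act beside it in the epidermis were examined as 7 genes of the ribosome profiling table of newborn mouse keratinocytes. They were taken by symbol: the channel subunits Scnn1a, Scnn1b and Scnn1g, the proteases Prss8, St14 and Prss27, and the protease inhibitor Spint1. All 7 were among the 10327 genes listed. The genes were chosen by their CPM values in the cKO and Ctrl libraries, which were known when the set was drawn up, and by their shared pathway, so every difference between cKO and Ctrl for these genes is given as a description and carries no test.

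The libraries came from epidermal keratinocytes at postnatal day 0, with no treatment. The conditional knockout mice (cKO, 2 libraries) carried K14Cre with both Mettl14 alleles floxed (K14Cre,Mettl14F/F), and the control mice (Ctrl, 2 libraries) carried the same K14Cre with 1 floxed and 1 normal allele (K14Cre,Mettl14F/+). K14Cre is active in basal keratinocytes and their descendants, so the controls also express Cre and are heterozygous at Mettl14. METTL14 is a core subunit of the enzyme that places N6-methyladenosine (m6A) on mRNA. Footprints are the mRNA stretches that ribosomes shield from RNase, and a gene's value here is CPM, its footprints per 1000000 in the library, which mixes mRNA level with ribosome density. Mettl14 had 9.22 and 5.32 CPM in the cKO libraries, against 27.8 and 27.2 CPM in the Ctrl libraries. The recovered totals were 542074 and 751948 reads in cKO 1 and cKO 2, and 933574 and 624167 in Ctrl 1 and Ctrl 2. Whether equally labelled libraries stem from different mice is not stated, so p-values measure only the spread between these samples.

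The channel, ENaC, is a complex of alpha, beta and gamma subunits that lets sodium enter epithelial cells at the apical membrane. Mice without the alpha subunit have a disturbed skin barrier. Prostasin, the product of Prss8, is a membrane-anchored serine protease that raises the activity of the channel. Matriptase, the product of St14, is a transmembrane serine protease that works in 1 pathway with prostasin and takes part in the processing of profilaggrin. HAI-1, the product of Spint1, is the transmembrane Kunitz inhibitor that holds both proteases in check. Prss27 encodes marapsin, a serine protease of stratified squamous epithelium.

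Scnn1g and Scnn1b lie beside each other on chromosome 7 on the same strand, 96.6 kb apart, with 0 listed genes between them. Scnn1g (ENSMUSG00000000216) spans 121734479 to 121768475 and Scnn1b (ENSMUSG00000030873) spans 121865038 to 121918514 in GRCm38. Each has 12 coding exons, as does Scnn1a (ENSMUSG00000030340, chromosome 6, 125320659 to 125344943, plus strand). The promoters of 4 of the 7 genes were matched in RefSeq (GRCm38.p6), and all 4 are shown. They run from 250 bases before to 50 after the start annotated in RefSeq, 5′ to 3′. In GENCODE Prss27 begins at base 24038144, before its RefSeq start, so part of its upstream window lies inside that gene. Capitals mark matches, on either strand, to GGGCGG (GC box), TGANTCA (AP-1-type) or AGAACA (steroid receptor half-site).
Scnn1b promoter (chr7:121864788-121865087, plus strand): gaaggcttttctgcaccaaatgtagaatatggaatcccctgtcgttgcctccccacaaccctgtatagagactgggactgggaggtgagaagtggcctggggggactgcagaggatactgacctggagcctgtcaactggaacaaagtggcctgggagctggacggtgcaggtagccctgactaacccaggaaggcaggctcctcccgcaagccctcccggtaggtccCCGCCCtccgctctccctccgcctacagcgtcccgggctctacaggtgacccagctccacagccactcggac
Scnn1g promoter (chr7:121734229-121734528, plus strand): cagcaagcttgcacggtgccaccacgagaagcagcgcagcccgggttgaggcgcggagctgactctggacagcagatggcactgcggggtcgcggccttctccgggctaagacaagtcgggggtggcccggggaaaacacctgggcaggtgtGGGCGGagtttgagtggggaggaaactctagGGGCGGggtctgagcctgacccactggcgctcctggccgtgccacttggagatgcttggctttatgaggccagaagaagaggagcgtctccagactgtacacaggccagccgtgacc
Prss27 promoter (chr17:24037993-24038292, plus strand): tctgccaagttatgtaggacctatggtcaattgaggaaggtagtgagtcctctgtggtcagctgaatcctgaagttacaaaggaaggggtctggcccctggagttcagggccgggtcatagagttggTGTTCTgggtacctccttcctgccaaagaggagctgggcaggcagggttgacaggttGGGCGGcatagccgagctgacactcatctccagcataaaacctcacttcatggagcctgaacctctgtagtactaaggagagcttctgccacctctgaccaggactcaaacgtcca
Spint1 promoter (chr2:119237110-119237409, plus strand): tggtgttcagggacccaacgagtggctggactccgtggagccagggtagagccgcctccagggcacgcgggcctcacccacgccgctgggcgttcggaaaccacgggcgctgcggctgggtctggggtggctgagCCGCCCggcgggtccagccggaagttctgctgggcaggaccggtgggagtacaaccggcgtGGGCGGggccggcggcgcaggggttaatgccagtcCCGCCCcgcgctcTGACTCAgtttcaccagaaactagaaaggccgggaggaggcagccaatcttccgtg

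A GC box was present in all 4 windows, and 35.7% of 32851 promoters of this length hold at least 1. Scnn1b held 1, Scnn1g held 2, Prss27 held 1 and Spint1 held 3. The AP-1-type match in Spint1 began at base -6 from the start site, and 7.81% of promoters hold that motif. The steroid receptor half-site in Prss27 began at base -123 on the opposite strand, and 19.0% of promoters hold it. AACCNGTT (grainyhead-type, in 2.09% of promoters) and TATAAA (in 13.6%) were searched on both strands and not found in these windows. These matches describe letters in the windows, and no binding was measured.

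The alpha subunit gene Scnn1a, whose product is essential for channel function, had 138 and 172 CPM in the cKO libraries, against 58.9 and 51.3 CPM in the Ctrl libraries. The cKO values rested on 75 and 129 reads and the Ctrl values on 55 and 32. The lower cKO library was above the higher Ctrl library. The 95% exact Poisson intervals of counting were 109 to 173 CPM in cKO 1 and 44.4 to 76.7 CPM in Ctrl 1. These intervals cover counting error only, not the spread between libraries, and are no test of a gene chosen by these values. The mean was 155 ± 23.5 CPM in cKO and 55.1 ± 5.4 CPM in Ctrl (SD, n = 2 each), a ratio of 2.81 and a log2 change of 1.47 ± 0.27 (limma SE, on the log2(CPM + 1) scale). In these bulk samples, for this and every gene, more cells of a type and more footprints per cell cannot be told apart.

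The beta subunit gene Scnn1b had 88.5 and 106 CPM in the cKO libraries, against 33.2 and 27.2 CPM in the Ctrl libraries. The groups did not overlap, and the gap between them was wider than the range within either group. The mean was 97.5 ± 12.6 CPM in cKO and 30.2 ± 4.2 CPM in Ctrl (SD, n = 2 each), a ratio of 3.23 and a log2 change of 1.66 ± 0.32 (SE), the highest of the 7 genes.

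The gamma subunit gene Scnn1g was close to the limit of the depth. It had 11.1 and 27.9 CPM in the cKO libraries (6 and 21 reads), against 7.50 and 6.41 CPM in the Ctrl libraries (7 and 4 reads). The groups did not overlap, but cKO 1 was near the Ctrl libraries, and its counting interval of 4.06 to 24.1 CPM contained both Ctrl values. The log2 change of 1.24 ± 0.60 (SE) became 0.61 without cKO 2 and 1.87 without cKO 1. A difference for this subunit was therefore not resolved at this depth in cKO 1.

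**Figure D1:**
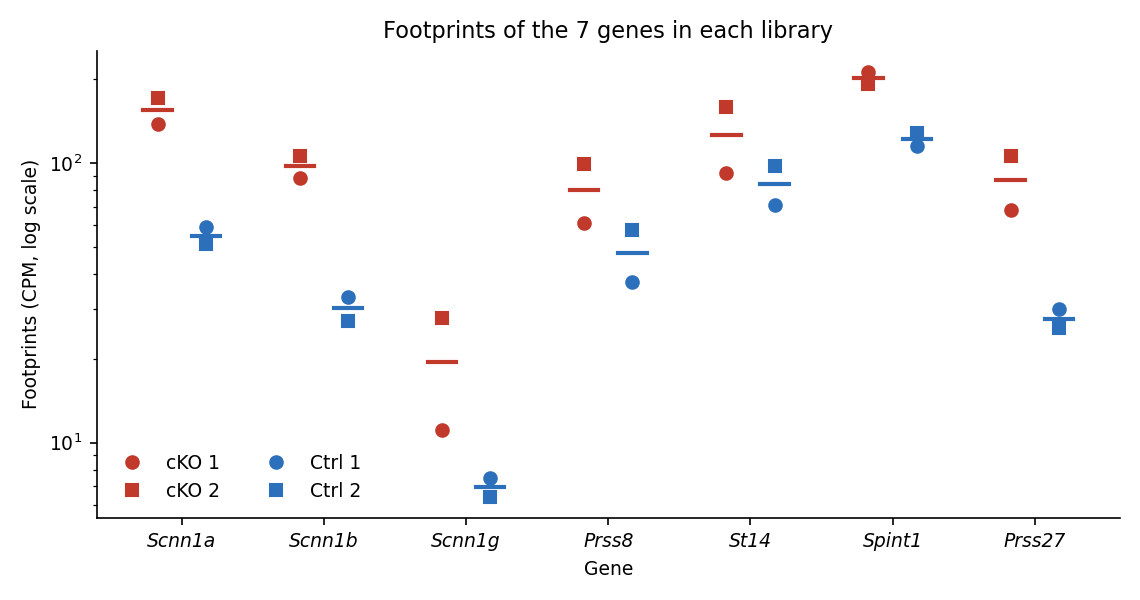
Footprints in CPM (log axis) of each gene in the 2 cKO and the 2 Ctrl libraries, with circles for replicate 1, squares for replicate 2 and a line at the group mean. The groups overlap for St14, and for Scnn1g cKO 1 (11.1 CPM) sits close to the Ctrl points.

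Together the channel genes took 238 and 306 CPM in cKO 1 and cKO 2, against 99.6 and 84.9 CPM in Ctrl 1 and Ctrl 2. The make-up of that total was similar in all 4 libraries. Scnn1a supplied 58.1% and 56.1% of the channel reads in cKO, against 59.1% and 60.4% in Ctrl. Scnn1b supplied 37.2% and 34.8% in cKO, against 33.3% and 32.1% in Ctrl. Scnn1g supplied 4.65% and 9.13% in cKO, against 7.53% and 7.55% in Ctrl. Each share rests on 53 to 230 channel reads, and for each subunit the 95% exact binomial intervals of the 4 libraries overlapped. Overlap of intervals does not show that the shares were equal, and a shift between subunits was not tested. Per kb of coding sequence the order was also the same in every library, with Scnn1a first at 53.9% to 55.9% of the channel level in cKO and 57.0% to 58.3% in Ctrl, and Scnn1g last at 4.78% to 9.38% in cKO and 7.75% to 7.78% in Ctrl.

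**Figure D2:**
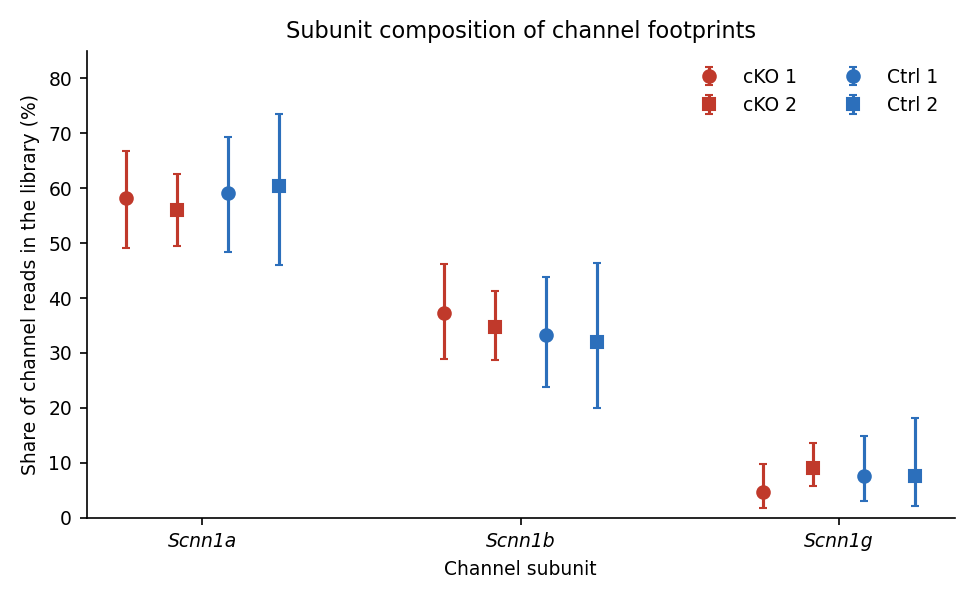
Share of channel reads (percent, linear axis from 0) that each subunit supplied in each library, with cKO in red, Ctrl in blue and 95% exact binomial intervals as bars. The intervals of the 4 libraries overlap within each subunit, with Scnn1a between 56.1% and 60.4% of reads.

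Among the proteases, Prss27 (ENSMUSG00000050762, chromosome 17, 24038144 to 24045954, plus strand) differed most. It had 68.3 and 106 CPM in the cKO libraries, against 30.0 and 25.6 CPM in the Ctrl libraries. Even the lower cKO library was above both Ctrl libraries, although cKO 2 was well above cKO 1. The mean was 87.3 ± 27.0 CPM in cKO and 27.8 ± 3.1 CPM in Ctrl (SD, n = 2 each), a ratio of 3.14 and a log2 change of 1.59 ± 0.34 (SE).

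The prostasin gene Prss8 (ENSMUSG00000030800, chromosome 7, 127925716 to 127930104, minus strand) had 60.9 and 99.7 CPM in the cKO libraries, against 37.5 and 57.7 CPM in the Ctrl libraries. The groups did not overlap, but cKO 1 and Ctrl 2 were only a few CPM apart. The log2 change of 0.73 ± 0.33 (SE) was 0.38 without cKO 2 and 0.43 without Ctrl 1, against 1.08 without cKO 1 and 1.04 without Ctrl 2. Exons of Prss8 overlap those of Kat8 on the opposite strand. The strand setting of the counting is not given in the sources used here, so how reads in the overlap were counted is not known. Kat8 had 20.3 and 19.9 CPM in cKO, against 34.3 and 25.6 CPM in Ctrl.

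The matriptase gene St14 (ENSMUSG00000031995, chromosome 9, 31089402 to 31131853, minus strand) was the one member whose groups overlapped. It had 92.2 and 160 CPM in the cKO libraries, against 70.7 and 97.7 CPM in the Ctrl libraries. The value in cKO 1 was below that in Ctrl 2. Its log2 change of 0.54 ± 0.29 (SE) stood at 0.15 without cKO 2, 0.31 without Ctrl 1, 0.93 without cKO 1 and 0.77 without Ctrl 2. For Prss8 and St14 the library numbered 2 was the higher one in both groups.

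The HAI-1 gene Spint1 (ENSMUSG00000027315, chromosome 2, 119237362 to 119249527, plus strand) had 212 and 192 CPM in the cKO libraries, against 116 and 128 CPM in the Ctrl libraries. The groups were apart, with a narrow spread in each. The mean was 202 ± 14.6 CPM in cKO and 122 ± 8.83 CPM in Ctrl (SD, n = 2 each), a ratio of 1.66 and a log2 change of 0.72 ± 0.23 (SE).

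Within a library, ratios between genes do not depend on the scaling between libraries. Per kb of coding sequence, Prss8 stood at 0.863 and 0.907 of Prss27 in cKO, against 1.21 and 2.18 in Ctrl. Prss27 had the higher value of the pair in both cKO libraries and the lower one in both Ctrl libraries. The reads of Prss8 and Prss27 were 33 and 37 in cKO 1, 75 and 80 in cKO 2, 35 and 28 in Ctrl 1, and 36 and 16 in Ctrl 2. With so few reads most of these orders are uncertain, and how reads in the overlap of Prss8 with Kat8 were counted is not known. No counting error was computed for the ratios, and the order was not tested. Prss27 stood at 1.93 and 1.74 times St14 in cKO, against 1.11 and 0.684 in Ctrl. The ratio of Prss8 to St14 was 1.66 and 1.58 in cKO, against 1.34 and 1.49 in Ctrl. The inhibitor gene Spint1 stood at 0.844 and 0.469 of the summed level of the 3 proteases in cKO, against 0.801 and 0.697 in Ctrl, so these ranges overlapped.

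Read against the table as a whole, both cKO libraries were above both Ctrl libraries for 6 of the 7 genes, while 11.1% of all genes had that order and 34.1% had the reverse. Nothing is read from that count, since the same contrast was known when the genes were chosen. Over the whole table limma called 0.368% of genes higher in cKO and 0.300% lower at a Benjamini-Hochberg adjusted p under 0.05 (38 and 31 genes, or 105 and 8 after median centring), and 3.5% were higher and 10.8% lower at an unadjusted p under 0.05. Without cKO 1 or without cKO 2 no gene of the table was called (smallest limma adjusted p = 0.532 and 0.552, with 940 and 928 genes at an unadjusted p under 0.05). The median log2 change of the 7 genes was 1.24, beside -0.24 for all 10327 genes. It was 1.62 without cKO 1 and 0.80 without cKO 2. Taken from that median of the whole table, the single changes ran from 0.79 for St14 to 1.90 for Scnn1b. With other scalings, tools and pseudocounts and with 1 library left out, the log2 change ran from 1.32 to 1.74 for Scnn1a, from 1.52 to 1.92 for Scnn1b and from 1.27 to 1.90 for Prss27. The direction itself was part of how the genes were chosen.

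**Figure D3:**
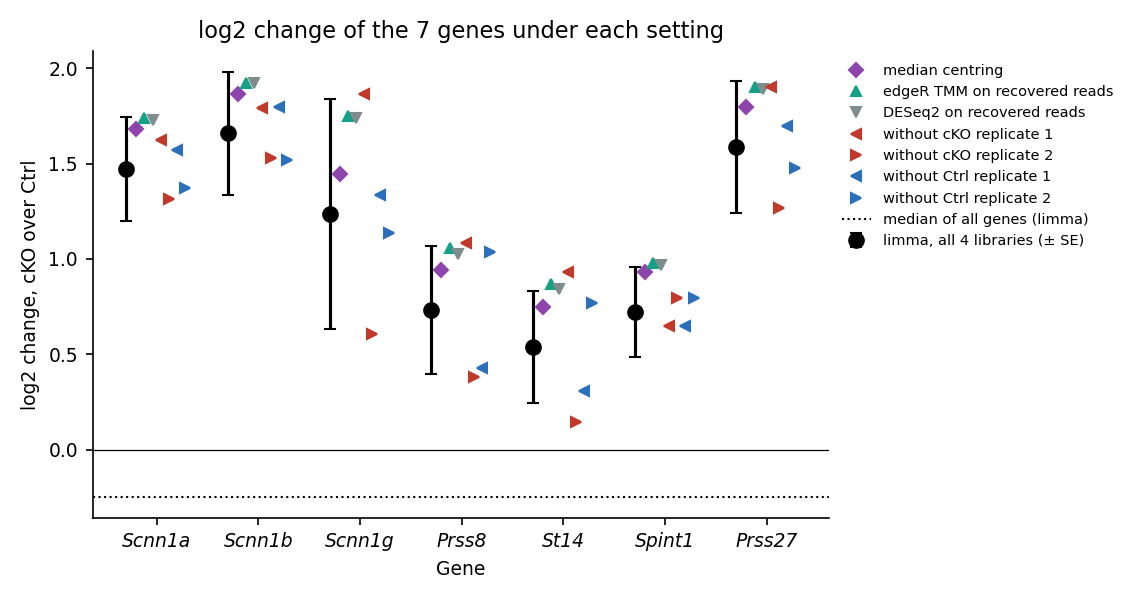
log2 change, cKO over Ctrl, of each gene from limma on all 4 libraries (black, ± SE), under other scalings or tools, and with 1 library left out. The dotted line is the median of all genes (-0.24), and the points of St14, Prss8 and Scnn1g spread most when a library is left out.

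Levels of different genes were compared as CPM per kb of the longest annotated coding sequence, without the stop codon. In Ctrl the order was Spint1 (80.2 ± 5.8 CPM per kb), Prss8 (46.8 ± 14.04), St14 (32.8 ± 7.5), Prss27 (28.3 ± 3.1), Scnn1a (26.2 ± 2.6), Scnn1b (15.8 ± 2.2) and Scnn1g (3.54 ± 0.39; all SD, n = 2). The libraries of Spint1 were above those of Prss8, those of Scnn1a above Scnn1b and those of Scnn1b above Scnn1g, but neighbours from Prss8 down to Scnn1a overlapped. In cKO the order was Spint1 (133 ± 9.6 CPM per kb), Prss27 (88.7 ± 27.4), Prss8 (79.0 ± 27.0), Scnn1a (73.8 ± 11.2), Scnn1b (50.9 ± 6.6), St14 (49.1 ± 18.6) and Scnn1g (9.92 ± 6.07; all SD, n = 2). There Prss27, Prss8 and Scnn1a overlapped as neighbours, and Scnn1b overlapped with St14. Among all genes ranked per kb, Spint1 stood at percentile 92.4 in cKO and 84.1 in Ctrl, and Scnn1g at percentile 33.6 in cKO and 8.69 in Ctrl.

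**Figure D4:**
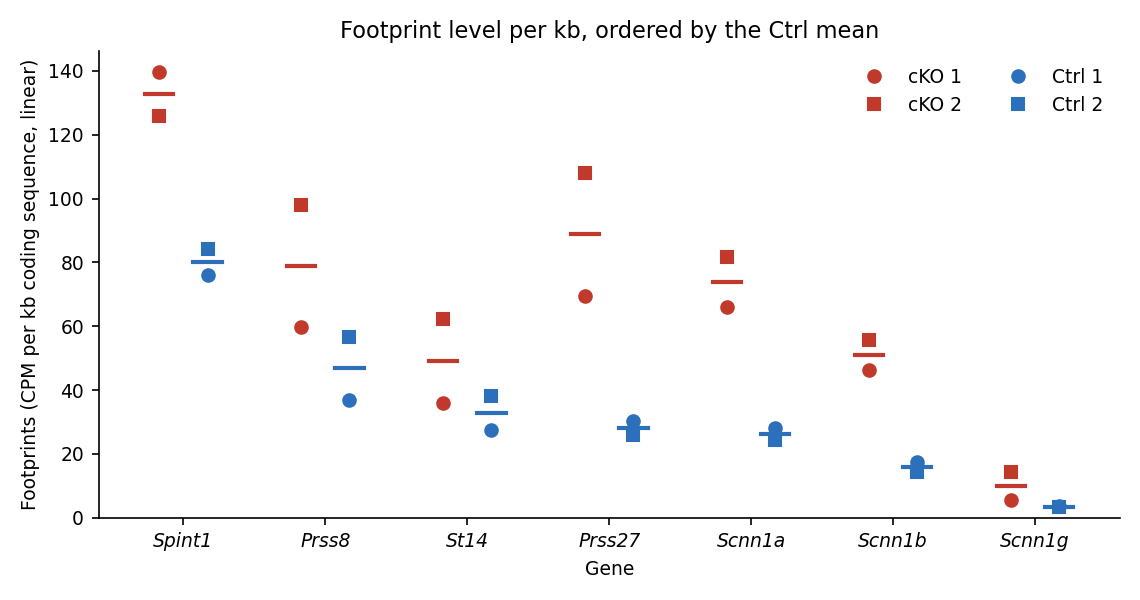
Footprint level per kb of coding sequence (CPM per kb, linear axis from 0) of each gene in each library, ordered by the Ctrl mean, with a line at the group mean. Spint1 is highest in both groups, and Prss27 is the second highest in cKO and the fourth in Ctrl.

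GGACT is a frequent core of the sequence at which the METTL14 complex writes m6A, and m6A itself was not measured in these libraries. The longest coding sequence held 3 copies of GGACT in Scnn1a (1.43 per kb), 5 in Scnn1b (2.61 per kb) and 1 in Scnn1g (0.509 per kb), beside a median of 1.08 per kb over 10322 genes with a coding sequence. St14 held 7 (2.73 per kb), Spint1 held 3 (1.97 per kb), and Prss8 and Prss27 held 2 each (1.97 and 2.03 per kb). Scnn1b thus had more copies per kb than 91.1% of genes and St14 more than 92.3%, while Scnn1g had more than 26.4%. These counts cover the coding sequence only, and a link between GGACT content and the changes was not tested. The coding GC content ran from 51.8% in Scnn1g to 58.9% in Prss8, beside a median of 53.0%. The channel's copies that lie within 1 exon are shown with 11 bases on either side, from the GENCODE transcripts (GRCm38), with GGACT in capitals and the position counted from the A of the start codon.
Scnn1a coding base 133 (chr6:125322002-125322028, plus strand): tgcccatgcaaGGACTgggcaaggggg
Scnn1a coding base 744 (chr6:125331149-125331175, plus strand): gtggacaggaaGGACTggaaaatcggc
Scnn1a coding base 2052 (chr6:125344026-125344052, plus strand): gcctctccactGGACTcggctgtgcct
Scnn1b coding base 339 (chr7:121902291-121902317, plus strand): cacttgctcaaGGACTtggatgagcta
Scnn1b coding base 906 (chr7:121911986-121912012, plus strand): atcggtcaggaGGACTatgtccccttc
Scnn1b coding base 1248 (chr7:121914302-121914328, plus strand): tgcaacaacagGGACTtcccagactgg
Scnn1b coding base 1835 (chr7:121917966-121917992, plus strand): gcccatcccggGGACTccaccccccaa
Scnn1g coding base 531 (chr7:121740499-121740525, plus strand): ggaaaggccagGGACTtcttcactggt

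Related genes were taken from 7 lists, of which 58 of 95 genes were in the table. Limma called 0 of the 58 higher and 1 lower (6 higher and 6 lower at an unadjusted p under 0.05, where the whole table had 3.5% higher and 10.8% lower). With TMM, edgeR called 2 higher and 0 lower, and DESeq2 1 higher and 0 lower. DESeq2 gave no adjusted p to some genes of the table, Tmprss13 among them. Such genes could not be called by it, so its counts of 0 below are limited by this. The median log2 change of the 58 genes was -0.22, beside -0.24 for all genes. Of the ENaC regulators, genes that control the channel's activity or removal, 18 of 23 were measured, and 0 passed limma in either direction (0 higher and 5 lower at an unadjusted p under 0.05, beside the 10.8% of all genes that were lower; 0 by edgeR with TMM and by DESeq2). Their median was -0.37. Nedd4, a ubiquitin ligase, had 854 and 783 CPM in cKO, against 1477 and 1230 CPM in Ctrl (log2 change -0.72 ± 0.20, SE; limma adjusted p = 0.106; -0.48 with edgeR and TMM). Ywhae, a 14-3-3 protein, had a log2 change of -0.61 ± 0.21 (limma adjusted p = 0.172; -0.36 with edgeR and TMM). Nedd4l, the ligase best known for removing ENaC from the membrane, was picked with its values known and had 31.4 and 30.6 CPM in cKO, against 45.0 and 59.3 CPM in Ctrl (limma adjusted p = 0.369). The 5 acid-sensing channel genes of the same family were not among the listed genes.

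The sodium pump, which carries sodium out of the cell, had 5 of 10 genes measured, and 0 passed limma in either direction (0 at an unadjusted p under 0.05; 0 by edgeR with TMM and by DESeq2). Fxyd3, a small regulator of the pump, had 330 and 426 CPM in cKO, against 379 and 596 CPM in Ctrl (log2 change -0.34 ± 0.23, SE; limma adjusted p = 0.529). That change was -0.016 without Ctrl 2, -0.67 without Ctrl 1, -0.16 without cKO 1 and -0.52 without cKO 2, and it was -0.13 after median centring, -0.11 with DESeq2 and -0.097 with edgeR and TMM. For the measured pump genes the log2 changes ran from -0.39 to -0.25 with all 4 libraries. Of 9 measured genes for other cation channels of keratinocytes, 0 passed limma (1 higher and 0 lower at an unadjusted p under 0.05; 0 by edgeR with TMM and by DESeq2), with a median of 0.037. Piezo1, a mechanically gated channel, stood at 0.21 ± 0.27 (SE), and at 0.056 without cKO 2, 0.11 without Ctrl 1, 0.37 without cKO 1 and 0.49 with edgeR and TMM. Exons of Piezo1 overlap those of Ctu2, and exons of Fxyd3 those of Lgi4, both on the opposite strand. Exons of Nedd4l, Tmprss4 and Tmprss13 overlap those of antisense genes. Stim1, a calcium sensor of store-operated entry, stood at 0.09 ± 0.25 (SE), and at -0.087 without cKO 1, 0.27 without cKO 2 and 0.35 with edgeR and TMM.

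Of the other membrane serine proteases, 7 of 21 were measured and 0 passed limma (1 higher and 0 lower at an unadjusted p under 0.05; 0 by edgeR with TMM and by DESeq2). Tmprss13, a transmembrane protease of the epidermis, had 57.2 and 83.8 CPM in cKO, against 30.0 and 44.9 CPM in Ctrl (log2 change 0.90 ± 0.35, SE; limma adjusted p = 0.234). DESeq2 gave Tmprss13 a log2 change of 1.18 but no adjusted p, so it could not be called there. Tmprss4, the most abundant of these proteases, had a log2 change of -0.15 ± 0.24 (limma adjusted p = 0.815), which was 0.057 after median centring and 0.098 with edgeR and TMM. Of 4 measured inhibitors, 0 were called higher and 1 lower. Serpinb6a, an intracellular serpin, fell to 64.6 and 58.5 CPM in cKO, against 137 and 147 CPM in Ctrl (log2 change -1.20 ± 0.27, SE; limma adjusted p = 0.0373). It did not pass after median centring (adjusted p = 0.0795), with edgeR and TMM (0.078), with DESeq2 (0.159), with the filter of 10 CPM (0.0632), without Ctrl 1 (0.0876), Ctrl 2 (0.116), cKO 1 (0.532) or cKO 2 (0.552), and its exons overlap those of Ripk1 and Nqo2. Spint2, the gene of the second Kunitz inhibitor HAI-2, was picked with its values known. It had 284 and 285 CPM in cKO, against 353 and 401 CPM in Ctrl (log2 change -0.40 ± 0.21, SE; limma adjusted p = 0.387). Per kb, Spint1 stood at 0.371 and 0.334 of Spint2 in cKO, against 0.163 and 0.159 in Ctrl.

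Of 17 genes listed around matriptase and prostasin, 15 were measured and 0 passed limma (4 higher and 0 lower at an unadjusted p under 0.05), with a median of -0.045. The list holds substrates and partners, and also other genes of the skin barrier such as Asprv1 and Cldn1. Asprv1, a skin protease that processes filaggrin, had 3542 and 3943 CPM in cKO, against 1791 and 2330 CPM in Ctrl (log2 change 0.87 ± 0.22, SE; limma adjusted p = 0.0698), and it was called higher by edgeR with TMM (adjusted p = 0.00533) and by DESeq2 (0.00123). The log2 change of Asprv1 ran from 0.68 without Ctrl 1 to 1.06 without Ctrl 2. With TMM, edgeR also called Cldn1, a claudin of tight junctions, higher (adjusted p = 0.0496). Cldn1 was not called by limma in the main fit (adjusted p = 0.203) or after median centring (0.0772), nor by DESeq2 (0.054). With library totals edgeR did not call it (0.219), while limma with a replicate block did (0.0106). Flg, which encodes profilaggrin, had 4274 and 4444 CPM in cKO, against 2922 and 3364 CPM in Ctrl (log2 change 0.48 ± 0.23, SE; limma adjusted p = 0.346; 0.73 with edgeR and TMM). The lists share the Ctrl and cKO libraries with the 7 genes, and no difference between them was tested.

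**Figure D5:**
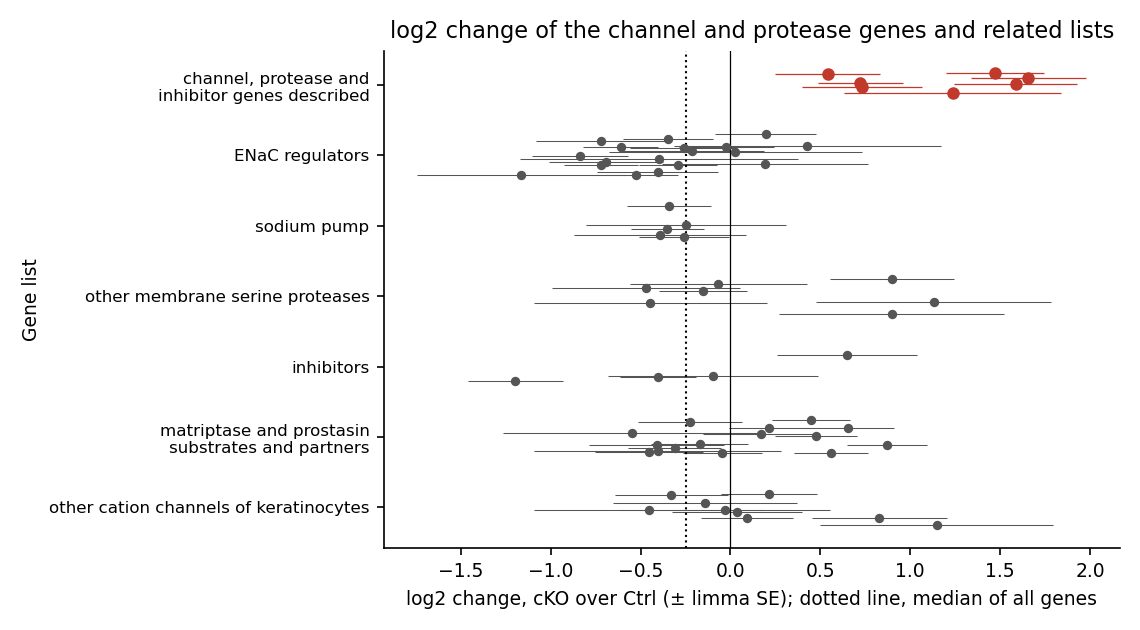
log2 change, cKO over Ctrl (± limma SE), of the 7 genes (red, top row) and of the measured genes of each related list (grey); vertical scatter within a row has no meaning. The dotted line is the median of all genes (-0.24), the pump genes lie between -0.39 and -0.25, and the 7 genes lie between 0.54 and 1.66.

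Markers of the epidermal layers were counted in the same way, beside the 3.5% of all genes that were higher and the 10.8% that were lower at an unadjusted p under 0.05. Of 10 granular layer markers, limma called 5 higher and 0 lower (9 and 0 at an unadjusted p under 0.05), and their summed level was 14332 and 19894 CPM in cKO, against 7863 and 10552 CPM in Ctrl. Of 6 spinous markers none was called by limma (4 higher and 0 lower at an unadjusted p under 0.05), and they summed to 187712 to 199454 CPM in cKO, against 124029 to 135891 CPM in Ctrl. Of 6 basal markers, 0 were called higher and 1 lower (Krt5; 0 higher and 5 lower at an unadjusted p under 0.05), with sums of 9137 and 10876 CPM in cKO, against 21308 and 18815 CPM in Ctrl. Krt14, the partner of Krt5 in basal keratinocytes, had 1301 and 3398 CPM in cKO, against 2716 and 3695 CPM in Ctrl, so keratinocyte markers were present in every library. The part of the layers in the differences above was not tested.

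Markers of other cells were also present. Of 8 fibroblast markers 3 were called lower and 0 higher (5 and 0 at an unadjusted p under 0.05), with sums of 1636 and 1108 CPM in cKO, against 4008 and 2438 CPM in Ctrl. Of 5 red blood cell markers 0 were called (2 higher and 0 lower at an unadjusted p under 0.05), with sums of 526 and 98.4 CPM in cKO, against 120 and 80.1 CPM in Ctrl. Melanocyte markers (5 of 5 measured, 0 called, 0 at an unadjusted p under 0.05) summed to 817 and 894 CPM in cKO, against 684 and 1330 CPM in Ctrl, and immune markers (3 of 5 measured, 0 called, 0 at an unadjusted p under 0.05, with Cd207 and Lyz2 not listed) to 363 and 136 CPM in cKO, against 222 and 357 CPM in Ctrl. Hair follicle markers (6 measured, 1 called lower and 0 higher, 4 and 0 at an unadjusted p under 0.05) summed to 1059 and 1432 CPM in cKO, against 1895 and 2189 CPM in Ctrl. Krt17 made up most of these follicle sums, with 795 and 1072 CPM in cKO, against 1404 and 1682 CPM in Ctrl. None of the 4 endothelial markers was listed. The part of these cells in the differences was not tested.

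Outside the 7 genes, those with the most similar profile over the 4 libraries were sought among 5158 genes at or above the median CPM, as the smallest Euclidean distance between log2(CPM + 1) values centred on each gene's mean. By the same measure Scnn1a lay 0.198 from Scnn1b and 0.257 from Prss27, and Scnn1b lay 0.275 from Prss27. The remaining members lay farther away. Their distances ran from 0.714 (Scnn1g) to 1.09 (St14) for Scnn1a and from 0.825 (Scnn1g) to 1.29 (St14) for Scnn1b. For Prss27 they ran from 0.566 (Scnn1g) to 1.16 (St14). The members were chosen by these same values, so nothing is read from their closeness. The nearest genes outside the set were, for Scnn1a, Serpinb2 (distance 0.185), Leprotl1 (0.234) and Krt16 (0.293). For Scnn1b they were Mpzl3 (0.274), Serpinb2 (0.336) and Krt16 (0.405). For Prss27 they were Krt16 (0.178), Serpinb2 (0.362) and Mpzl3 (0.366). Krt16, a keratin of stressed epidermis, had 1684 and 2766 CPM in cKO, against 860 and 756 CPM in Ctrl. Serpinb2, an intracellular serpin, had 1334 and 1648 CPM in cKO, against 669 and 519 CPM in Ctrl. The distances rest on 4 libraries and are a description.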

How the data were processed

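Ribosome footprints of 25 to 35 nt were sequenced from 4 libraries, 2 cKO and 2 Ctrl. The deposited table holds CPM values that the authors scaled to 1000000 over its 10327 genes. Its columns headed WT were matched by number to the Ctrl samples, the remaining labelled group. The submitters' processing notes name GRCm38, HTSeq, HISAT2 and fastp, and give neither versions nor, in the sources used here, the strand setting. All values were whole multiples of 1 read (tolerance 0.0001 reads, 100% of values), which is worth 1.84, 1.33, 1.07 and 1.60 CPM in cKO 1, cKO 2, Ctrl 1 and Ctrl 2, so reads were recovered. Each listed gene had at least 1 read in every library.

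Identifiers were matched to GENCODE for GRCm38 (10323 matched). The main fit was limma-trend (limma 3.58.1, R 4.3.3) on log2(CPM + 1), with group as its single term, for genes reaching 1 CPM in 2 or more libraries (0 removed, and all 7 members passed), and Benjamini-Hochberg adjustment over the whole table at 0.05. The pseudocount of 1 shrinks the changes of genes with low values. With 2 libraries a group, limma draws each variance toward a trend over genes. Alternatives were median centring, edgeR 4.0.16 quasi-likelihood (TMM or library totals) and DESeq2 1.42.0 on recovered reads, other pseudocounts and filters, a replicate block, and leaving out each library. Scripts were tested on simulated data.

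The members, lists and naming rule were chosen with earlier results of these data known. The rule names all 7 members, Mettl14, up to 2 called rises and 2 called falls of each related list (or, if none is called, its 2 most abundant genes), and for Scnn1a, Scnn1b and Prss27 the 3 genes with the nearest profile; 1 gene it names is not reported here. Total RNA and translational efficiency were not analysed here, and protein features planned for the members were not computed.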

Additional observations from a re-analysis of the deposited data

How the results depend on the processing

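Genes called higher and lower were 105 and 8 after median centring, 163 and 13 with edgeR and TMM, 62 and 56 with edgeR and library totals, 87 and 5 with DESeq2, and 14 and 9 with a filter of 10 CPM, against 38 and 31 in the reported fit. Over the whole table the median change (log2) stood at -0.24 as reported, -0.037 after centring and 0.0015 with edgeR and TMM. With 1 library left out the counts ran from 0 to 104 higher and from 0 to 44 lower. For the related genes the counts higher and lower were 1 and 0 after median centring, 2 and 0 with edgeR and TMM, 1 and 1 with edgeR and library totals, 1 and 0 with DESeq2, and 0 and 0 with the filter of 10 CPM, and with 1 library left out they were 0 throughout. The median log2 change of the 7 members was 1.74 with edgeR and TMM, 1.73 with DESeq2 and from 0.80 to 1.62 with 1 library left out. Tmprss4 changed sign after median centring (0.057), with edgeR and TMM (0.098), with DESeq2 (0.088) and, with 1 library left out, ran from -0.39 to 0.090, and Stim1 then ran from -0.087 to 0.27. The cause of these shifts was not tested.

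Under a replicate block, limma called 257 genes higher and 582 lower, 6 and 4 of them among the related genes. No label pairs equally numbered libraries. Their deviations from the group means correlated at 0.195 over 10327 genes. The other settings, 2 pseudocounts and no filter, left every count within 1.5 times. The level per kb with a second source of coding length was not run. Depth limits Scnn1g most, with 4 to 21 reads a library.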
